A study of Mus musculus with 8 samples.

Results

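The comparison described here asks what dextran sodium sulfate (DSS) did in mice that had first received bovine colostrum exosomes. It rests on the libraries whose labels name exosome pretreatment: ExDSS 1 and ExDSS 2, set against Ex 1 and Ex 2, which are 4 of the 8 libraries of the series. All groups were wild-type C57BL/6 mice, and RNA came from intestinal tissue whose segment the labels do not name. ExDSS mice received 1 mg of exosomes daily by gavage for 3 weeks and then drank 3% DSS for 6 days. Ex mice received the same exosomes and no DSS. The other 4 libraries are PC (phosphate buffered saline, then the same DSS) and NC (saline control without DSS), with 2 libraries each. No label ties a library to a mouse. A p-value here therefore sets a difference against how far libraries of the same group lie apart, pooled over all 4 groups. That distance may be technical.

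DSS is a sulfated polysaccharide that damages the colonic epithelium and lets luminal bacteria reach the mucosa. The injured mucosa recruits neutrophils and monocytes, releases interleukin-1 and chemokines, and makes acute phase and antimicrobial proteins, while crypt proliferation and the transport functions of surface colonocytes are disturbed. Exosomes are small membrane vesicles that cells secrete. Those of colostrum, the first milk, carry proteins, lipids and RNA.

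The 4 libraries differed in depth and make-up. Total counts were 9652586 and 10812469 in ExDSS 1 and ExDSS 2, against 8813622 and 1163147 in Ex 1 and Ex 2. Rn45s, the precursor of ribosomal RNA, took 0.874% and 0.665% of counts in the ExDSS libraries, against 13.1% in Ex 1 and 53.5% in Ex 2 (exact Clopper-Pearson 95% interval 53.4 to 53.6%). Digestive enzyme genes of pancreatic acinar cells took 21.6% of the counts of ExDSS 1 and 0.106% in ExDSS 2, against 0.284% in Ex 1 and 0.00825% in Ex 2. Of the other 4 libraries NC 2 also held acinar RNA, at 9.65% of its counts. Ex 2 also held little epithelial RNA, since 12 epithelial marker genes summed to 5553 and 5122 CPM (counts scaled by library total and TMM factor) in ExDSS 1 and ExDSS 2 and to 6765 in Ex 1, but to 82.0 in Ex 2. Of 5187 genes with at least 20 CPM in Ex 1, 406 (7.83%) had no count in ExDSS 1, 98 (1.89%) in ExDSS 2 and 1005 (19.4%) in Ex 2. The correlation of log2 CPM over 14567 genes, a description in which genes are not replicates, was r = 0.683 for ExDSS 1 with ExDSS 2 and 0.478 for Ex 1 with Ex 2. Because ExDSS 1 and Ex 2 stand apart, results are given with and without them, and in a fit without 1 library of a group the lone library left is assumed to vary like those of the other groups. In tissue RNA, fewer cells of a type and less RNA per cell cannot be told apart.

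**Figure D1:**
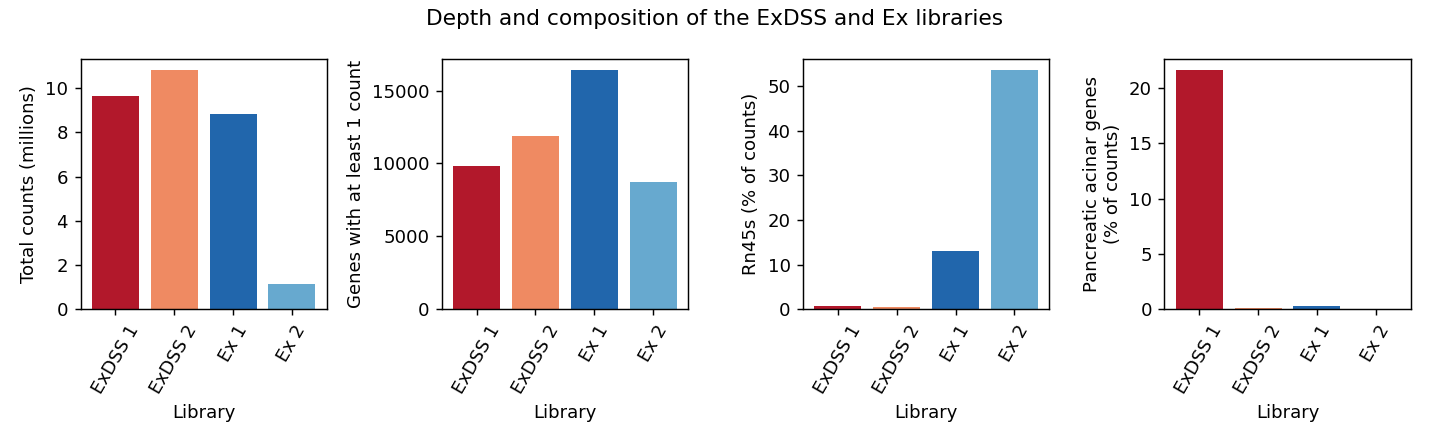
Total counts, genes with at least 1 count, and the percentage of counts from Rn45s and from pancreatic acinar genes, as 1 bar for each ExDSS and Ex library. Ex 2 had the lowest total (1163147 counts) and the highest Rn45s share (53.5%), and ExDSS 1 had the highest acinar share (21.6%).

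No gene reached the threshold between ExDSS and Ex. In edgeR's quasi-likelihood test, adjusted by Benjamini-Hochberg, 0 of 14567 genes (0%) had an adjusted p under 0.05, and the smallest was 0.146. At an unadjusted p under 0.05 the same test gave 517 genes higher and 2364 lower in ExDSS. DESeq2 called 392 genes higher and 1654 lower, and limma-voom 79 and 426. Among them were 78 (DESeq2) and 39 (limma-voom) of the genes that the naming rule picked, most of them for a small p in these same data. edgeR's common dispersion was 1.17 with 4 residual degrees of freedom. In counts simulated for ExDSS against Ex at that dispersion, the edgeR test recovered 0 of 50 genes changed 64-fold, with 14080 genes tested. At a dispersion of 0.1 it recovered 50 of 50, with 14075 genes tested. Every simulated gene had the same dispersion, and the libraries had the same make-up apart from the changed genes. These shares are therefore not the power of the fit to the real libraries. An exact permutation test of 2 libraries against 2 cannot give a p below 0.333. Some other settings of edgeR did make calls, with 75 genes higher and 148 lower without the filter on low counts (41 of the genes named here among them), 8 and 20 with a replicate block (13 named) and 1483 and 431 without Ex 1 (57 named). The values below are levels and differences that did not pass the edgeR test with all libraries, and each log2 fold change is ExDSS over Ex.

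A description without a test shows where the libraries separated. A gene was counted when the lowest library of 1 group lay above the highest of the other and the group means were at least 4-fold apart. By this rule 1591 genes (10.9% of 14567) were higher in ExDSS and 2016 (13.8%) lower. Of the 1591 higher genes, 944 had no count in Ex 2 and 20 had none in either Ex library. Of the 2016 lower genes, 681 had no count in either ExDSS library, and 746 had at least 4 times the CPM in Ex 2 that they had in Ex 1. Against Ex 1 alone, 1152 genes (7.91%) were higher in both ExDSS libraries and 4219 (29%) lower. Over all genes tested the median was -0.29 on the log2 scale.

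Genes of neutrophils, cytokines and chemokines, macrophages, protease inhibitors and interferon response made up the 12 with the smallest p on the higher side. Of these, S100a8, S100a9, Retnlg and Mmp8 are in the neutrophil list. S100a8 and S100a9 encode the subunits of calprotectin, an abundant neutrophil protein that binds metal ions and is measured in stool as a sign of gut inflammation. S100a8 was at 1170 and 559 CPM in ExDSS 1 and ExDSS 2, against 1.12 in Ex 1 and 0 in Ex 2. Its log2 fold change was 10.01 (SE 2.0, edgeR adjusted p = 0.146), and it was 8.93 with both Ex 2 and ExDSS 1 left out. S100a9 was at 1430 and 1030 CPM in the ExDSS libraries, against 3.17 and 5.96 in the Ex libraries, a log2 fold change of 8.14 (SE 1.82, edgeR adjusted p = 0.147). For both genes each ExDSS library lay far above each Ex library. Both genes lie on chromosome 3 (GRCm38), S100a8 from 90669071 to 90670034 on the plus strand and S100a9 from 90692630 to 90695721 on the minus strand.

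The 250 bases before the annotated start are printed for S100a8, S100a9 and the chemokine gene Cxcl10, which were chosen after their levels and matches were seen, as the calprotectin genes and the chemokine gene of the 12 with the most matches. The windows of Il1b and Ccl8, also among the 12 genes of smallest p, held no match to either pattern searched. Sequences are from RefSeq (GRCm38.p6), 5′ to 3′ on the gene's strand, and capitals mark matches on either strand to TTGCNNAA, a pattern of C/EBP factors, or GGGNNNNNCC, a pattern of NF-kappa B. The windows are chr3:90668821-90669070 for S100a8, chr3:90695722-90695971 for S100a9 and chr5:92348890-92349139 for Cxcl10.
S100a8: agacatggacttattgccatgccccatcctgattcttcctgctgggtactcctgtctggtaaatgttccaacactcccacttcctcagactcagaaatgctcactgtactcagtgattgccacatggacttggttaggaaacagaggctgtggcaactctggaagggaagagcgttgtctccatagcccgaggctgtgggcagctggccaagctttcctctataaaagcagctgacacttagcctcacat
S100a9: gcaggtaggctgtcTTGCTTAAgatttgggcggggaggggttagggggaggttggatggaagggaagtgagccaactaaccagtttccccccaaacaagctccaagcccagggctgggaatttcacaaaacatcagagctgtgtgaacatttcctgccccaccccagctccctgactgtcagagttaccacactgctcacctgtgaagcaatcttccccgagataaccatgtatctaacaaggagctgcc
Cxcl10: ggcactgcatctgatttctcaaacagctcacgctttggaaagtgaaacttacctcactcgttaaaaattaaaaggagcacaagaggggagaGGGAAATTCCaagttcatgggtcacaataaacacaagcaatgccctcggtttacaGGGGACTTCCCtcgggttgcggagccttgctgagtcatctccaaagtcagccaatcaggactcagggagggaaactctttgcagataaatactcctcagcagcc
S100a9 held 1 match to the C/EBP pattern (TTGCTTAA), Cxcl10 held 3 matches to the NF-kappa B pattern, of which GGGGACTTCC and GGGACTTCCC overlap, and S100a8 held none of either. The C/EBP pattern was present in 9.55% and the NF-kappa B pattern in 45.4% of 27025 RefSeq promoter windows of the same length. Among the 12 genes named for the smallest p on the higher side, 11 had a window in the table, 5 of them with the C/EBP pattern and 4 with the NF-kappa B pattern. A match is a run of letters and does not show that a factor binds there.

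Other neutrophil genes had the same order of levels. Retnlg, a resistin-like gene expressed by neutrophils, was at 298 and 233 CPM in the ExDSS libraries, against 2.25 and 0 in the Ex libraries (log2 fold change 7.43, SE 1.68, edgeR adjusted p = 0.147). Mmp8, the neutrophil collagenase, was at 53.1 and 59.5 CPM in ExDSS, against no count in either Ex library, so it was at least 23.6-fold higher against a floor of 3 counts per library, or 183-fold against the floor of Ex 1 alone. The neutrophil list had 25 genes in the table, of which 18 passed the filter on low counts, and 16 of these had a positive log2 fold change. The libraries did not overlap at 4-fold for 13 of the 18, all higher in ExDSS, beside 10.9% of all genes, and 0 were lower. The median was 5.81 (4.47 with genes lacking Ex counts set at their bound), and 4.93 with both Ex 2 and ExDSS 1 left out. Summed over the list, the ExDSS libraries had 3331 and 2080 CPM, against 19.1 and 8.94 in the Ex libraries. Ex 1, although it held 8813622 counts, had a count for 11 of the 25 genes and Ex 2 for 3, against 18 in ExDSS 1 and 16 in ExDSS 2.

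Cytokines and chemokines are secreted signals that draw and activate leukocytes. Of their 26 tested genes, 14 were higher in ExDSS without overlap at 4-fold, beside 10.9% of all genes. Il1b, the precursor of interleukin-1 beta, was at 764 and 463 CPM in ExDSS 1 and ExDSS 2, against 1.84 and 5.96 in Ex 1 and Ex 2 (log2 fold change 7.45, SE 1.73, edgeR adjusted p = 0.147). Ccl8, a monocyte chemoattractant, was at 915 and 1050 CPM in ExDSS, against 11.7 and 1.49 in Ex (7.11, SE 1.72, edgeR adjusted p = 0.147). Cxcl10, which attracts T and NK cells through CXCR3, was at 564 CPM in ExDSS 1 but 33.6 in ExDSS 2, against 0.613 and 1.49 in the Ex libraries. Its log2 fold change was 8.46 (SE 1.94, edgeR adjusted p = 0.147), and 5.31 without ExDSS 1. Both ExDSS libraries of all 3 genes lay above both Ex libraries, with Cxcl10 the only one of the 3 in which the ExDSS libraries were more than 10-fold apart. Of the 26 tested genes 22 had a positive log2 fold change, while 12 and 9 of the 30 list genes had no count in ExDSS 1 and ExDSS 2, against 9 in Ex 1 and 23 in Ex 2. The list median was 4.53, and 3.62 with genes lacking Ex counts at their bound.

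**Figure D2:**
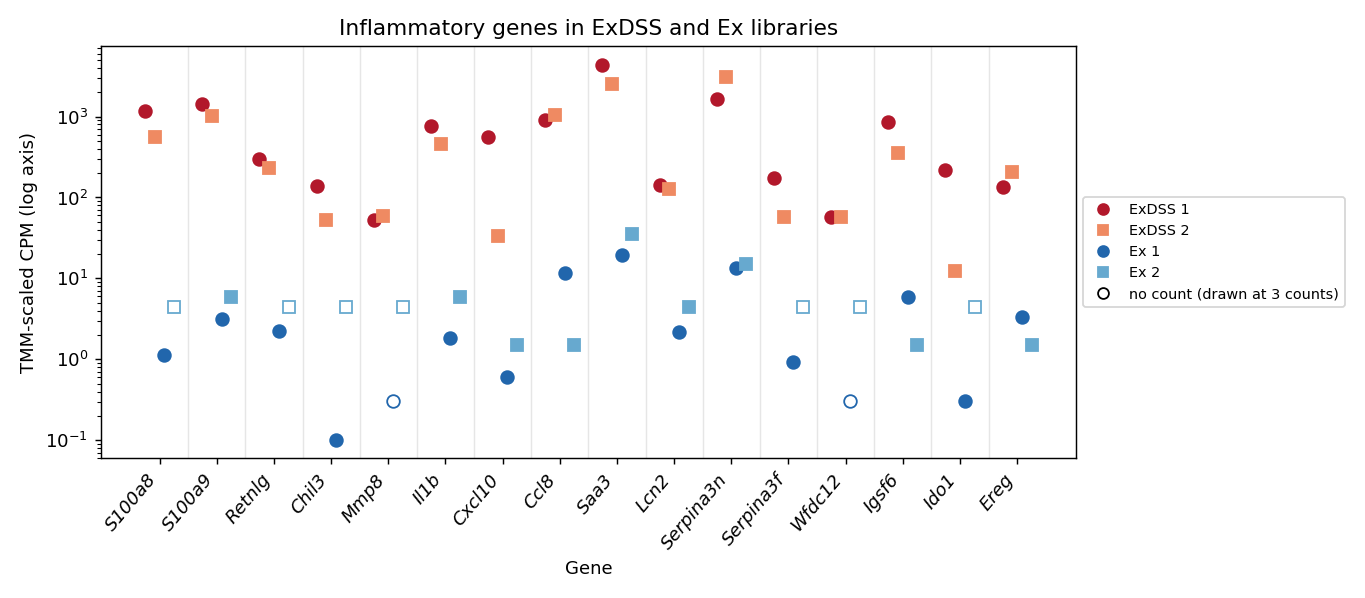
TMM-scaled CPM on a log axis for 16 genes of inflammation in ExDSS 1, ExDSS 2, Ex 1 and Ex 2. Open symbols mark libraries without a count, drawn at the level of 3 counts. Each ExDSS library lies above each Ex library for every gene drawn, and the distance between the ExDSS libraries is widest for Cxcl10 (564 and 33.6 CPM) and Ido1 (216 and 12.3 CPM).

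Most markers of monocytes and macrophages were higher in both ExDSS libraries than in both Ex libraries. Chil3, a chitinase-like protein of macrophages, was at 139 and 52.8 CPM in ExDSS, against 0.102 and 0 in Ex. The Ex value is 1 count, which gives a pooled ratio of 895 with an exact 95% counting interval of 160 to 35355. Fcgr4, an activating receptor for immunoglobulin G, was at 181 and 84.4 CPM in ExDSS, against 2.97 and 0 in Ex (log2 fold change 6.10, SE 1.64). Spi1, which encodes the myeloid transcription factor PU.1, was at 257 and 145 CPM in ExDSS, against 7.05 and 1.49 in Ex (5.41, SE 1.52). The adjusted p of these 3 genes ran from 0.147 to 0.207 in edgeR's quasi-likelihood test. Igsf6, an immunoglobulin superfamily gene of myeloid cells, was at 853 and 357 CPM in ExDSS, against 5.93 and 1.49 in Ex. All 26 genes of the list were tested, and 24 had a positive log2 fold change. Without overlap at 4-fold 17 were higher, beside 10.9% of all genes. The summed list was at 4429 and 6188 CPM in ExDSS, against 3448 in Ex 1 and 44.7 in Ex 2, so Ex 1 lay near the ExDSS libraries in total macrophage marker RNA. The median of 3.59 was 2.75 without Ex 2.

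Interferon-stimulated genes, which cells induce on sensing viruses or bacteria, and genes of antigen presentation by major histocompatibility complex (MHC) class II showed the same order. Gbp5, an interferon-induced guanylate-binding protein of host defence, was at 153 and 75.3 CPM in ExDSS, against 2.56 and 0 in Ex. Ifi47, an interferon-gamma-induced GTPase, was at 201 and 87.1 CPM in ExDSS, against 5.21 and 1.49 in Ex. Isg15, a ubiquitin-like modifier, was at 481 and 345 CPM in ExDSS, against 14.3 and 8.94 in Ex. The 3 log2 fold changes were 6.06, 5.27 and 5.13, with SE of 1.46 to 1.62 and edgeR adjusted p of 0.194 to 0.207. Ido1, which starts the breakdown of tryptophan to kynurenine, was at 216 CPM in ExDSS 1 and 12.3 in ExDSS 2, against 0.307 and 0 in Ex. The Ex total of Ido1 was 3 counts, a pooled ratio of 313 (exact 95% counting interval 107 to 1517). All 37 interferon-stimulated genes were tested, and 35 had a positive log2 fold change. Beside 10.9% and 13.8% of all genes, 22 of the 37 were higher without overlap at 4-fold and 0 lower. Their median was 3.25, and 2.15 with both Ex 2 and ExDSS 1 left out.

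Cd74, the invariant chain that guides MHC class II molecules, was at 1840 and 1220 CPM in ExDSS 1 and ExDSS 2, against 57.4 and 5.96 in Ex 1 and Ex 2. H2-Ab1, a class II beta chain, was at 1030 and 600 CPM in ExDSS, against 96.5 and 2.98 in Ex. H2-DMa, a subunit of the molecule that exchanges class II peptides, was at 268 and 113 CPM in ExDSS, against 19.9 and 1.49 in Ex. Each was highest in ExDSS 1 and lowest in Ex 2, and without Ex 2 the log2 fold changes of 5.57, 4.01 and 4.06 became 4.79, 3.13 and 3.32. The edgeR adjusted p was 0.236 for each of the 3 genes with all libraries. Of 14 list genes, 12 were tested and 11 had a positive log2 fold change. Without overlap at 4-fold 7 were higher, beside 10.9% of all genes.

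Protease inhibitors limit tissue damage by neutrophil enzymes, and they share a list here with acute phase proteins. Saa3, a serum amyloid A gene expressed in inflamed mouse tissues, was at 4380 and 2550 CPM in ExDSS, against 19.6 and 35.8 in Ex (log2 fold change 6.98, SE 1.85, edgeR adjusted p = 0.194). Serpina3n, an inhibitor of serine proteases, was at 1630 and 3110 CPM in ExDSS, against 13.5 and 14.9 in Ex (7.39, SE 1.84, edgeR adjusted p = 0.157). Wfdc12, a small protein with a protease inhibitor domain, was at 57.9 and 57.1 CPM in ExDSS, against no count in either Ex library, at least 24.1-fold higher, or 187-fold against the floor of Ex 1 alone. The 2 Ex libraries were close to each other for Saa3 and Serpina3n although they differed widely in epithelial genes such as Epcam. Serpina3f was at 175 and 57.3 CPM in ExDSS, against 0.920 and 0 in Ex, and Serpina3g at 280 and 40.5 CPM, against 1.23 and 1.49. These neighbouring Serpina3 genes are near copies, so the split of reads among them is uncertain. Of 20 list genes, 19 were tested and 17 had a positive log2 fold change. Beside 10.9% of all genes, 14 of the 19 were higher without overlap at 4-fold. The median was 5.37, and it stayed between 3.57 and 6.88 in every alternative run.

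Antimicrobial proteins of the epithelium varied more between libraries. Lcn2, which withholds iron from bacteria by binding siderophores, was at 142 and 126 CPM in ExDSS, against 2.15 and 4.47 in Ex (log2 fold change 5.45, SE 1.5, edgeR adjusted p = 0.197). Retnlb, a goblet cell protein that acts on bacteria, was at 408 and 1070 CPM in ExDSS, against 5.42 and 10.4 in Ex (6.58, SE 1.81, edgeR adjusted p = 0.197). Reg3b, a lectin that kills bacteria, was at 8820 CPM in ExDSS 1 but 87.0 in ExDSS 2, against 7.05 and 13.4 in Ex. Lcn2 and Retnlb were alike in both ExDSS libraries within 3-fold, whereas Reg3b was over 100-fold higher in the library with pancreatic RNA. Its log2 fold change of 8.80 was 3.12 without ExDSS 1. Reg3a, a related lectin, was at 736 CPM in ExDSS 1 and had no count in ExDSS 2, against 0.204 and 0 in Ex, and its log2 fold change of 10.92 turned to -4.01 without ExDSS 1. Both Reg3 genes are also expressed by pancreatic acinar cells under stress, and the part of ExDSS 1's acinar RNA in these values was not tested. Of 22 list genes, 19 were tested and 10 were higher without overlap at 4-fold, Reg3b among them, beside 10.9% of all genes. The list median was 2.55.

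Goblet cells secrete the gel that covers the mucosa. Their main mucin was higher in both ExDSS libraries than in both Ex libraries, but its group means were less than 4-fold apart. Muc2, the gel-forming mucin of the gut, was at 647 and 1490 CPM in ExDSS, against 573 and 35.8 in Ex (log2 fold change 1.81, SE 1.56, edgeR adjusted p = 0.574). Muc1, a membrane-bound mucin, was at 45.2 and 40.3 CPM in ExDSS, against 2.45 and 0 in Ex (4.77, SE 1.95). Spdef, a transcription factor of goblet cell maturation, was at 77.2 and 30.9 CPM in ExDSS, against 5.11 and 1.49 in Ex (3.89, SE 1.55). Ex 1 lay within 1.5-fold of ExDSS 1 for Muc2 but well under both ExDSS libraries for Muc1 and Spdef. Creb3l1, a transcription factor of secretory cells anchored in the endoplasmic reticulum, went the other way against Ex 1 alone, with 1.24 and 5.20 CPM in ExDSS, against 96.8 in Ex 1 and 1.49 in Ex 2. The edgeR adjusted p was 0.236 for Muc1, Spdef and Creb3l1. Of 23 list genes, 22 were tested and 16 had a positive log2 fold change. Without overlap at 4-fold 7 were higher, beside 10.9% of all genes. The summed list was at 22690 and 58150 CPM in ExDSS, against 16840 in Ex 1 and 299.6 in Ex 2, and the median of 1.42 was 0.60 without Ex 2.

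Ligands of epithelial repair and proteins that remodel the matrix were high in both ExDSS libraries for most genes the naming rule picked. Ereg, a ligand of the epidermal growth factor receptor, was at 136 and 208 CPM in ExDSS, against 3.37 and 1.49 in Ex (log2 fold change 6.01, SE 1.54, edgeR adjusted p = 0.166). Clu, the chaperone clusterin, which marks regenerating gut epithelium in mice, was at 769 and 112 CPM in ExDSS, against 30.8 and 13.4 in Ex (4.29, SE 1.53, edgeR adjusted p = 0.236). Tff2, a trefoil peptide of gastric mucus, was at 104 CPM in ExDSS 1 and had no count in the other 3 libraries. Ereg was the one of these 3 in which ExDSS 2 exceeded ExDSS 1. Mmp13, a collagenase, was at 90.1 and 104 CPM in ExDSS, against 4.19 and 1.49 in Ex (4.94, SE 1.49, edgeR adjusted p = 0.230). Mmp3, the protease stromelysin 1, was at 33.0 and 56.6 CPM in ExDSS, against 1.74 and 0 in Ex. Timp1, an inhibitor of these proteases, was at 42.3 and 66.7 CPM in ExDSS, against 2.45 and 0 in Ex. For all 3 matrix genes ExDSS 2 was the higher ExDSS library, and without ExDSS 1 the log2 fold changes of Mmp13, Mmp3 and Timp1 were 5.04, 5.51 and 5.32.

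Of 24 repair genes in the table, 22 were tested and 7 were higher without overlap at 4-fold, with a median of 1.36. Of 22 matrix protease and inhibitor genes, 21 were tested, 8 were higher and 1 was lower, with a median of 1.67. Over all genes tested, 10.9% were higher and 13.8% lower by the same rule. Lox, which cross-links collagen, was at 123 and 84.4 CPM in ExDSS, against 2.45 and 0 in Ex (log2 fold change 5.98, SE 1.67, edgeR adjusted p = 0.205). Col18a1, a basement membrane collagen, was at 40.9 and 49.6 CPM in ExDSS, against 9.0 and 0 in Ex. Fn1, the matrix protein fibronectin, was at 182 and 326 CPM in ExDSS, against 84.9 and 17.9 in Ex. The differences of Col18a1 and Fn1 from Ex 1 alone were small beside that of Lox, and their edgeR adjusted p values were 0.276 and 0.333. Of 24 collagen and matrix genes, all tested, 8 were higher without overlap at 4-fold and 1 lower, with a median of 1.56.

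Epithelial identity genes gave no common direction against Ex 1, since 0 of 12 tested were higher in both ExDSS libraries at 4-fold and 2 were lower, beside 7.91% and 29% of all genes. Epcam, the adhesion molecule of epithelial cells, was at 566 and 634 CPM in ExDSS 1 and ExDSS 2, against 668 in Ex 1 and 5.96 in Ex 2. Its log2 fold change was 0.83 with all libraries (SE 1.53, edgeR adjusted p = 0.831) and -0.11 without Ex 2. Krt18, a keratin of simple epithelia, was at 656 and 472 CPM in ExDSS, against 213 and 2.98 in Ex. Ex 2 was the low library for both genes, and for Epcam the other 3 libraries lay within 1.5-fold of each other. Cdx2, a transcription factor that sets intestinal identity, was at 53.8 and 6.54 CPM in ExDSS, against 11 and 0 in Ex. Cdx1, its relative, was at 8.24 and 5.12 CPM in ExDSS, against 113 in Ex 1 and 4.47 in Ex 2. Lgals4, a lectin of the gut epithelium, had no count in either ExDSS library nor in Ex 2, against 22.6 CPM in Ex 1. The median over the 12 tested genes was 0.78 on the log2 scale, and -0.15 without Ex 2. Of these, 1 gene (Krt18) was higher without overlap at 4-fold and 0 were lower, beside 10.9% and 13.8% of all genes.

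Cell junction genes were mixed. Cldn12, a claudin, was at 2.20 and 0.252 CPM in ExDSS, against 17.3 and 34.3 in Ex, the 1 list gene that was lower without overlap at 4-fold (log2 fold change -4.39, SE 2.01, edgeR adjusted p = 0.241). Jup, the desmosomal protein plakoglobin, was at 252 and 12.7 CPM in ExDSS, against 48.2 and 0 in Ex. Cgn, the tight junction protein cingulin, was at 145 and 34.0 CPM in ExDSS, against 37.3 and 0 in Ex. Ex 1 lay between the ExDSS libraries for Jup and Cgn. All 25 list genes were tested, and 14 had a positive log2 fold change. Without overlap at 4-fold 2 were higher, beside 10.9% of all genes. The list median of 0.57 was -0.11 without Ex 2 and -0.15 with both Ex 2 and ExDSS 1 left out.

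Ion and water transport is the main absorptive function of the colon, and 9 of its 26 tested genes were lower at 4-fold in both ExDSS libraries than in Ex 1, a share near the 29% of all genes. Slc26a3, the chloride-bicarbonate exchanger of surface colonocytes, was at 501 and 613 CPM in ExDSS, against 2040 in Ex 1 and 11.9 in Ex 2 (log2 fold change -0.88, SE 1.64, edgeR adjusted p = 0.831). Car1, a carbonic anhydrase of colonocytes, was at 470 and 929 CPM in ExDSS, against 4400 in Ex 1 and 13.4 in Ex 2 (-1.66, SE 1.74, edgeR adjusted p = 0.658). Cftr, the chloride channel of crypt cells, had no count in ExDSS 1 and 0.671 CPM in ExDSS 2, against 55.1 in Ex 1 and 0 in Ex 2. For these 3 genes the Ex libraries lay on both sides of the ExDSS libraries or level with them, so the direction depended on which Ex library was read. Without Ex 1 the log2 fold changes of Slc26a3 and Car1 were 5.81 and 5.95. Slc16a1, the transporter of butyrate and lactate, was lower without overlap, at 3.71 and 24.6 CPM in ExDSS, against 204 and 507 in Ex (-4.65, SE 1.53, edgeR adjusted p = 0.236). Clca4b went the other way, at 95.6 and 485 CPM in ExDSS, against 3.07 and 1.49 in Ex (6.86, SE 1.78, edgeR adjusted p = 0.183), and it is a near copy of Clca4a, so its reads may be shared. Of 27 list genes, 26 were tested and 3 had a positive log2 fold change. Clca4b and Slc16a1 were the only 2 list genes without overlap at 4-fold, and against Ex 1 alone 1 was higher.

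**Figure D3:**
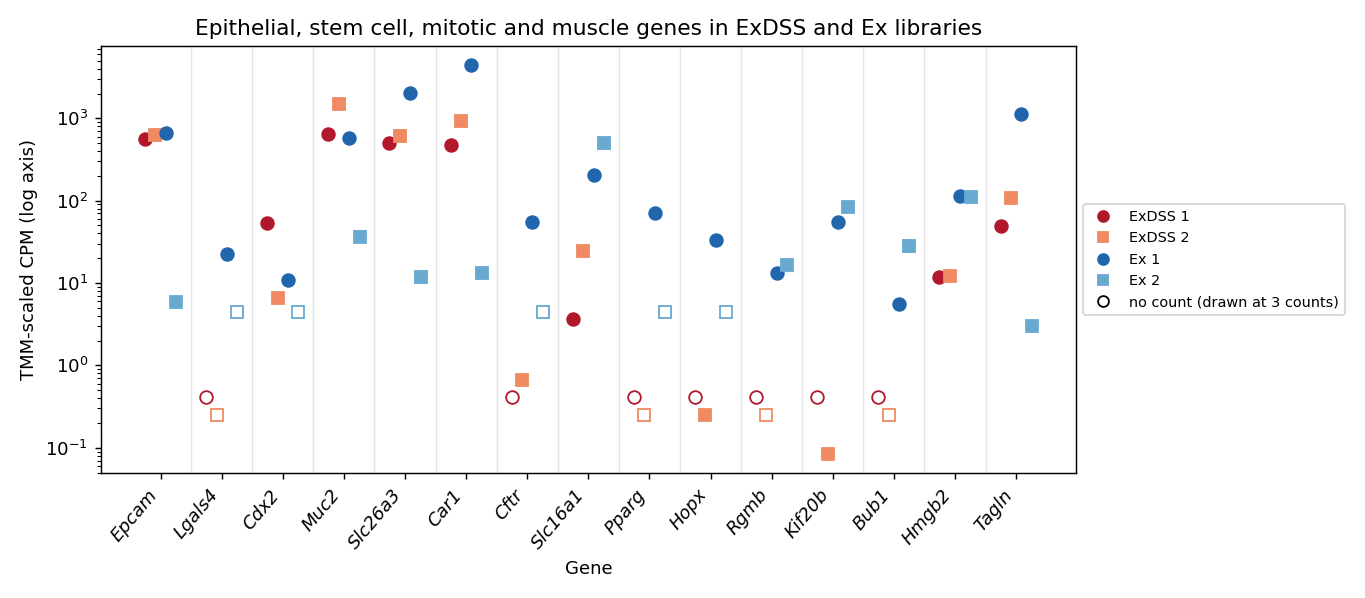
TMM-scaled CPM on a log axis for 15 genes of epithelium, transport, stem cells, mitosis and muscle in ExDSS 1, ExDSS 2, Ex 1 and Ex 2. Open symbols mark libraries without a count, drawn at the level of 3 counts. Ex 2 lies under the other 3 libraries for Epcam (5.96 CPM), whereas Kif20b, Hmgb2 and Slc16a1 are higher in both Ex libraries than in both ExDSS libraries.

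Fuel oxidation genes gave no common direction. Colonocytes burn butyrate, and their mitochondrial genes are used as signs of a differentiated surface epithelium. Etfa, a subunit of the electron transfer flavoprotein of fatty acid oxidation, was at 0.687 and 0.0839 CPM in ExDSS, against 44.2 and 2.98 in Ex (log2 fold change -5.98, SE 2.12). Ppara, a nuclear receptor that induces fatty acid oxidation, had no count in either ExDSS library, against 6.65 and 4.47 CPM in Ex, and was at least 16.8-fold lower in ExDSS. Pparg, the related receptor of colonocytes, had no count in either ExDSS library nor in Ex 2, against 70.8 CPM in Ex 1. The edgeR adjusted p was 0.209 to 0.236 for the 3 genes. All 25 list genes were tested, and 14 had a positive log2 fold change. Without overlap at 4-fold 2 were higher and 2 lower, beside 10.9% and 13.8% of all genes. Against Ex 1 alone 0 were higher and 7 lower, beside 7.91% and 29% of all genes. The list median was 0.02, and -0.08 with library totals alone. It was -0.86 without Ex 2, -0.84 with both Ex 2 and ExDSS 1 left out, and 4.51 without Ex 1.

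Nuclear genes of the respiratory chain were detected in nearly all libraries, with 28 of 28 counted in ExDSS 1, ExDSS 2 and Ex 1 and 27 in Ex 2. Ndufa1, a subunit of complex I, was at 27.7 and 40.6 CPM in ExDSS, against 629 in Ex 1 and 16.4 in Ex 2. Atp5d, a subunit of ATP synthase, was at 1140 and 372 CPM in ExDSS, against 255 and 2.98 in Ex. Uqcrc1, a subunit of complex III, was at 311 and 92.2 CPM in ExDSS, against 88.4 and 16.4 in Ex. ExDSS 2 was within 1.5-fold of Ex 1 for Atp5d and Uqcrc1 but over 10-fold under it for Ndufa1. The list median was 0.34 and turned to -0.33 without Ex 2, and the edgeR adjusted p of the 3 genes ran from 0.276 to 0.443.

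By the sign of the log2 fold change, genes of stem cells and Wnt signalling, of mitosis and of distal colon patterning lay mostly on the lower side. For the cell cycle list the share lower without overlap at 4-fold was near that of all genes. Rgmb, a bone morphogenetic protein co-receptor that is part of the Wnt-driven stem cell signature in mouse crypts, had no count in either ExDSS library, against 13.2 and 16.4 CPM in Ex, and was at least 44.6-fold lower in ExDSS. Myc, a Wnt target that drives growth, had no count in ExDSS, against 3.68 and 29.8 CPM in Ex, at least 50.5-fold lower, or 11.1-fold against Ex 1 alone. Hopx, a marker of slow-cycling crypt cells in mice, had 0 and 0.252 CPM in ExDSS, against 33.1 in Ex 1 and 0 in Ex 2, which is 3 counts in ExDSS and a pooled ratio of Ex to ExDSS of 198 (exact 95% counting interval 67.2 to 966). The edgeR adjusted p was 0.236 for each of these 3 genes. Of 24 stem cell and Wnt genes, 20 were tested and 5 had a positive log2 fold change. Without overlap at 4-fold, 2 were higher and 6 lower, beside 10.9% and 13.8% of all genes. The median was -3.03 (-2.36 with genes lacking ExDSS counts at their bound), and -1.32 with both Ex 2 and ExDSS 1 left out. The summed list did not follow the median, at 672 and 1140 CPM in ExDSS, against 491.5 and 649.8 in Ex, since its abundant members were not those that were low.

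Kif20b, a kinesin of cell division, had 0 and 0.0839 CPM in ExDSS, against 54.8 and 83.5 in Ex. Its ExDSS value is 1 count, a pooled ratio of Ex to ExDSS of 1087 (exact 95% counting interval 194 to 42991), and edgeR's adjusted p was 0.147. Bub1, a kinase of the mitotic checkpoint, had no count in ExDSS, against 5.62 and 28.3 CPM in Ex, and was at least 51.2-fold lower, or 16.9-fold against Ex 1 alone. Hmgb2, a chromatin protein of proliferating cells, was at 11.8 and 12.1 CPM in ExDSS, against 113 and 112 in Ex (log2 fold change -3.23, SE 1.30, edgeR adjusted p = 0.236). The libraries of each group lay close together for Hmgb2, and its log2 fold change lay between -3.63 and -2.96 in every alternative run. All 38 cell cycle genes were tested, 9 had a positive log2 fold change, and 0 were higher and 6 of the 38 lower without overlap at 4-fold, a share near the 13.8% of all genes. Summed cell cycle levels were 766.8 and 507.3 CPM in ExDSS, against 1232 and 1115 in Ex. The median of -0.97 was -1.71 with both Ex 2 and ExDSS 1 left out, and 0.45 without Ex 1.

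Homeobox genes keep positional identity along the gut, and the 3 Hoxd genes named here, those of smallest p in the list, had few counts or none in ExDSS. Hoxd10 was at 0 and 0.755 CPM in ExDSS, against 10.2 and 49.2 in Ex (log2 fold change -6.18, SE 2.54). Hoxd9 had no count in ExDSS, against 1.12 and 5.96 CPM in Ex, at least 10.7-fold lower, or 3.37-fold against Ex 1 alone. Hoxd12 had no count in ExDSS nor in Ex 2, against 2.97 CPM in Ex 1. The Ex 2 values rest on few counts, since 3 counts there equal 4.47 CPM, and the edgeR adjusted p was 0.236 for the 3 genes. Of 11 list genes, 10 were tested and 1 had a positive log2 fold change. Without overlap at 4-fold 4 were lower, beside 13.8% of all genes. The list median was -3.57. The summed list was at 202.5 and 143.5 CPM in ExDSS, against 358.2 and 439.7 in Ex. In ExDSS 1 and ExDSS 2, 5 and 8 of the 11 genes had a count.

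The summed level of endoplasmic reticulum stress genes was 3857 and 2827 CPM in ExDSS, against 2331 in Ex 1 and 14210 in Ex 2. Of the Ex 2 sum, 5720 CPM came from Hsp90b1 alone. In Ex 2, 5 of the 24 list genes had no count, against 0 in Ex 1. Hsp90b1, a chaperone of secreted proteins, was at 121 and 126 CPM in ExDSS, against 490 in Ex 1 and 5720 in Ex 2 (log2 fold change -4.65, SE 1.72). Eif2ak3, the stress sensor PERK, was at 0.137 and 0.0839 CPM in ExDSS, against 5.73 and 40.2 in Ex, which is 2 counts in ExDSS and a pooled ratio of Ex to ExDSS of 76.2 (exact 95% counting interval 20.4 to 639). Pdia4, a disulfide isomerase, was at 0 and 0.671 CPM in ExDSS, against 42.2 and 16.4 in Ex (-6.34, SE 2.0). Both Ex libraries lay above both ExDSS libraries for these 3 genes, at an edgeR adjusted p of 0.236 each. Of 24 list genes, 23 were tested. Without overlap at 4-fold 1 was higher and 3 were lower, beside 10.9% and 13.8% of all genes. The median of -0.73 was 0.09 without Ex 2.

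Genes of cell death lay on both sides. Casp8, the initiator caspase of death receptors, was at 2660 and 858 CPM in ExDSS, against 76.0 and 7.45 in Ex (log2 fold change 5.38, SE 1.82, edgeR adjusted p = 0.236). Gsdmd, the pore-forming protein of pyroptosis, was at 258 and 164 CPM in ExDSS, against 42.4 and 2.98 in Ex (3.17, SE 1.41, edgeR adjusted p = 0.237). Bbc3, the p53-induced killer protein PUMA, had no count in ExDSS, against 5.01 in Ex 1 and 951 CPM in Ex 2. Casp8 and Gsdmd were highest in ExDSS 1, and Bbc3 stood out in Ex 2 alone. Of 25 list genes, 24 were tested. Without overlap at 4-fold 6 were higher and 1 lower, beside 10.9% and 13.8% of all genes. The list median of 0.72 was -0.53 with both Ex 2 and ExDSS 1 left out.

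Enteroendocrine cells secrete gut hormones, and 5 of their 18 tested genes were higher in ExDSS without overlap at 4-fold, beside 10.9% of all genes. The summed list was at 924.8 and 3345 CPM in ExDSS, against 911.2 and 31.3 in Ex, and 8 and 6 of its 20 genes had no count in ExDSS 1 and ExDSS 2. Sst, the hormone somatostatin, was at 172 and 175 CPM in ExDSS, against 9.82 and 2.98 in Ex (log2 fold change 4.67, SE 1.45). Tac1, the precursor of substance P in neurons and endocrine cells, was at 293 and 636 CPM in ExDSS, against 43.7 and 0 in Ex (4.36, SE 1.64). Sst is also made by pancreatic islets, whose list, which holds Sst, summed to 369.8 and 632.4 CPM in ExDSS, against 72.0 and 4.47 in Ex, and the part of islet RNA in the level of Sst was not tested. Pcsk1, which processes prohormones, had no count in ExDSS nor in Ex 2, against 4.09 CPM in Ex 1. The edgeR adjusted p was 0.236 for the 3 genes. A positive log2 fold change was found for 15 of the 18 tested genes, with a median of 1.58.

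Enteric neuron and muscle genes showed no common shift. Elavl4, an RNA-binding protein of neurons, had no count in ExDSS nor in Ex 2, against 13.2 CPM in Ex 1. Gfap, a filament protein of enteric glia, was at 56.3 and 14.0 CPM in ExDSS, against 0.920 and 0 in Ex (log2 fold change 5.72, SE 2.21). Elavl4 and Gfap each had an edgeR adjusted p of 0.236. Of 21 list genes, 20 were tested, 3 were higher and 2 lower without overlap at 4-fold, beside 10.9% and 13.8% of all genes. Tagln, a smooth muscle actin-binding protein, was at 48.7 and 107 CPM in ExDSS, against 1120 in Ex 1 and 2.98 in Ex 2. Synm, a filament protein of muscle, was at 0.275 and 35.7 CPM in ExDSS, against 239 and 4.47 in Ex, and Csrp1, a muscle LIM protein, at 703 and 780 CPM, against 399 and 0. None of the 19 tested muscle genes was apart at 4-fold in either direction, and the edgeR adjusted p of these 3 ran from 0.361 to 0.597.

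Pancreatic enzyme genes were abundant in 1 library of the 4, ExDSS 1. Their summed level was 286400 CPM in ExDSS 1 and 962.3 in ExDSS 2, against 2563 and 143.1 in Ex, and among the saline-pretreated groups it was 113400 CPM in NC 2. Amy2a5, pancreatic amylase, was at 113000 CPM in ExDSS 1 but 1.17 in ExDSS 2, against 7.46 and 35.8 in Ex. Cpa1, a carboxypeptidase, was at 9190 CPM in ExDSS 1 and 0 in ExDSS 2, against 0.716 and 4.47 in Ex, and Ctrb1, a chymotrypsinogen, at 29400 and 0, against 2.86 and 11.9. ExDSS 2 was the lowest of the 4 libraries for all 3 genes. Without ExDSS 1 the log2 fold change of Amy2a5 turned to -4.16, that of Cpa1 to -7.49 and that of Ctrb1 to -9.21. Of the 26 acinar genes in the table, 25 had a count in ExDSS 1, 8 in ExDSS 2, 20 in Ex 1 and 17 in Ex 2. Clps, the lipase cofactor colipase, was at 5500 and 71.8 CPM in ExDSS, against 24.6 and 8.94 in Ex, and Pnliprp2, a pancreatic lipase-related protein, at 304 and 12.2, against 1.02 and 0. Of the 24 tested genes, 3 were higher without overlap at 4-fold, a share near the 10.9% of all genes. The list median of 10.73 was -6.17 without ExDSS 1.

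**Figure D4:**
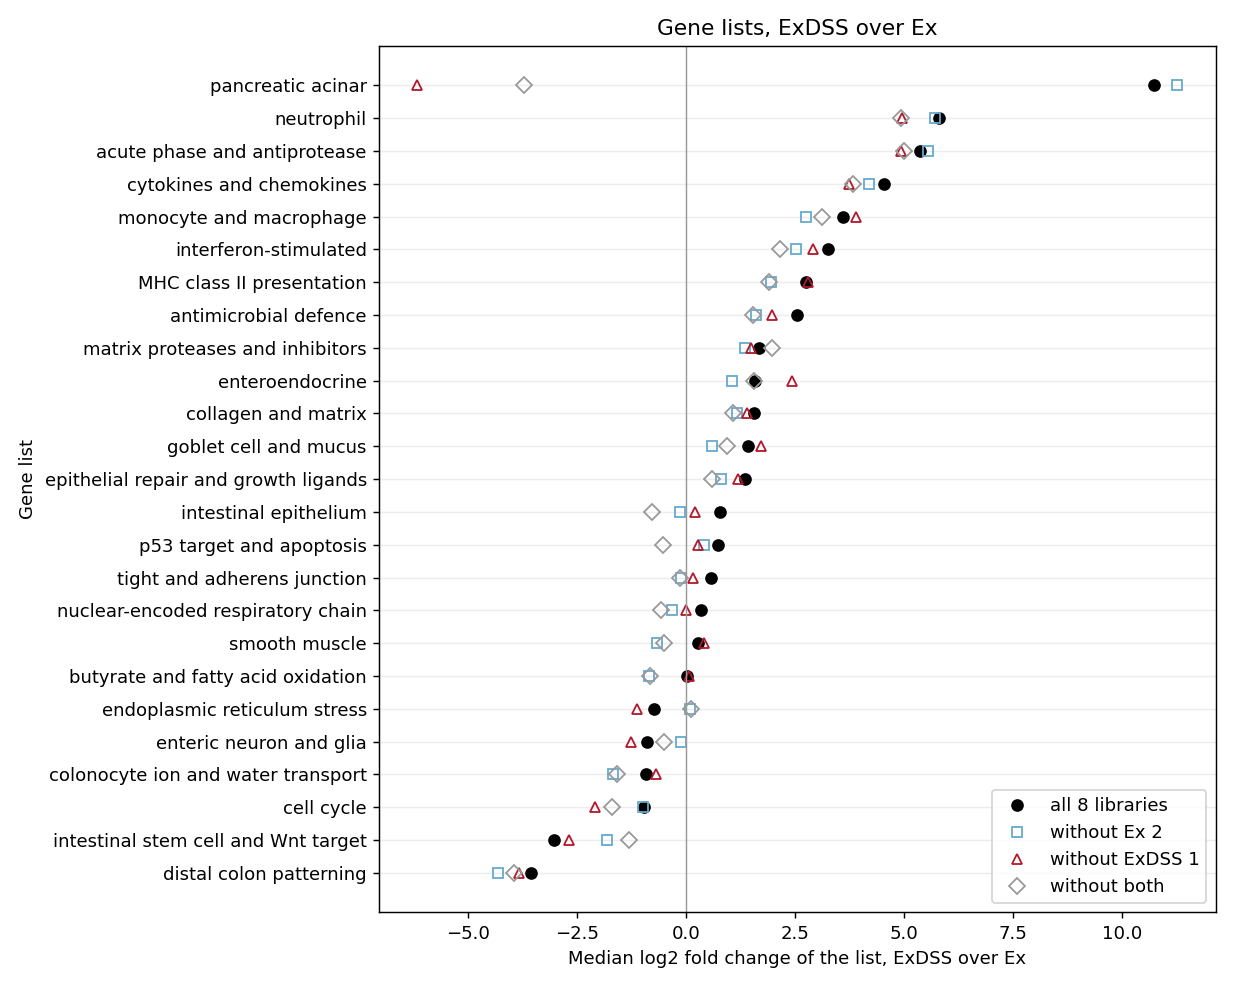
Median log2 fold change (ExDSS over Ex) of the tested genes of 25 lists, fitted with all 8 libraries, without Ex 2, without ExDSS 1, and without both. The acinar median of 10.73 turns to -6.17 without ExDSS 1, whereas the neutrophil median stays between 4.93 and 5.81 in the 4 fits drawn, and genes without counts in 1 group enter with fitted values that depend on the prior count.

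The 12 genes with the smallest p on the lower side shared 1 pattern. Each had at most 1 count per ExDSS library and was higher in Ex 2 than in Ex 1. Cyr61, a matricellular protein, had no count in ExDSS, against 4.91 CPM in Ex 1 and 3390 in Ex 2, and Fosl1, a subunit of the AP-1 transcription factor, had none, against 0.409 and 331. Bbc3 (named above), Aar2, a factor of spliceosome assembly (6.75 and 328 CPM in Ex), Ncdn, which encodes neurochondrin (8.08 and 279), and Cep170, a centrosomal protein (2.45 and 238), followed the same pattern with no count in ExDSS. For these genes the higher level in Ex was mostly that of Ex 2, the library with 1163147 counts, and the part of its low depth and high ribosomal share in these values was not tested. Zbtb17, a transcription factor that pairs with Myc (15.1 and 149 CPM), Ubxn7, a cofactor of the p97 segregase (12.5 and 155), and E2f3, a factor of cell cycle entry (6.03 and 165), also had no count in ExDSS. Clspn, an adaptor of the replication checkpoint, had 1 count in ExDSS, against 6.03 and 304 CPM in Ex, a pooled ratio of Ex to ExDSS of 483 (exact 95% counting interval 85.9 to 19139). Prrc2b had 2 counts in ExDSS, against 20.8 and 188 CPM in Ex, a ratio of 302 (82.9 to 2504). Against the floor of 3 counts per library the genes without ExDSS counts were at least 247-fold (Zbtb17) to 5120-fold (Cyr61) lower in ExDSS. These limits rest on Ex 2, and against Ex 1 alone they were 45.5-fold for Zbtb17, 14.8-fold for Cyr61 and 1.23-fold for Fosl1, with the others between 7.38-fold (Cep170) and 37.7-fold (Ubxn7). Kif20b, described above, was the member of the 12 whose Ex libraries were within 2-fold of each other. The edgeR adjusted p of the 12 genes was 0.146 or 0.147.

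The difference between ExDSS and Ex was then set against that between PC and NC, which share no library with it. In edgeR's quasi-likelihood test of the difference of the 2 differences, 42 of 14567 genes (0.288%) passed a Benjamini-Hochberg adjusted p of 0.05, 38 with a positive and 4 with a negative value, and 853 and 1888 had an unadjusted p under 0.05. DESeq2 called 1672 genes and limma-voom 327. The call depended on single libraries, since 0 genes passed without ExDSS 1, without NC 1 or without NC 2, 6 without ExDSS 2, 7 without Ex 2, 15 without PC 1, 31 without PC 2 and 1700 without Ex 1. All 38 positive genes were higher in both ExDSS libraries than in both Ex libraries. All 38 were also lower in both libraries labelled PC than in both labelled NC. The positive values thus come from 2 differences of opposite sign.

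S100a8 was at 0.291 and 0.628 CPM in the libraries labelled PC, which are labelled as DSS-treated, against 825 and 792 in those labelled NC. S100a9 was at 0.510 and 0.628 CPM in PC, against 1140 and 1130 in NC, and Saa3 at 6.62 and 5.18, against 2550 and 3410. Levels in the libraries labelled NC were thus near those of ExDSS (1170 and 559 CPM for S100a8), and those of PC were near those of Ex. Why the libraries labelled NC carry these genes was not tested. The log2 difference of differences was 20.75 for S100a8 and 19.07 for S100a9 (edgeR adjusted p = 0.00415 for both). It was 15.38 for Il1b, 16.68 for Cxcl10 and 15.66 for Serpina3f (edgeR adjusted p = 0.0092 for the 3), and 18.10 for Chil3 (0.0114). For S100a8 the value joins 10.01 for ExDSS over Ex with -10.75 for PC over NC, and for S100a9 it joins 8.14 with -10.93. The larger share of both values is thus the difference between the libraries labelled PC and NC, with those labels used as given. The sum of the 2 log2 fold changes is what the value would be with PC and NC exchanged. It was -0.74 for S100a8, -2.79 for S100a9 and -0.47 for Il1b. Other called genes gave 4.52 (Mmp8), 4.9 (Wfdc12), 2.53 (Ccl8), -14.61 (Bbc3), -12.84 (Aar2) and -8.43 (Kif20b). These sums were not tested.

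By list, the 38 positive genes included 8 of 19 tested genes of acute phase and antiprotease, 6 of 18 of neutrophils, 6 of 26 of cytokines and chemokines and 3 of 26 of monocytes and macrophages, beside 0.288% of all genes called in either direction, and a gene can stand in more than 1 list. The interferon-stimulated, matrix protease, collagen, repair, transport and small intestine absorption lists held 1 each, of 20 to 37 tested. Goblet cell, antimicrobial, junction, respiratory chain, fuel oxidation and stem cell lists held 0. The 4 negative genes were Bbc3, Aar2, Kif20b and the unnamed gene model Gm21949. Bbc3 was at 6.26 and 6.68 CPM in PC, against 1.53 and 6.77 in NC, so its negative value of -15.89 (edgeR adjusted p = 0.0396) came from ExDSS and Ex. Kif20b was at 75.5 and 46.1 CPM in PC, against 28.6 and 8.59 in NC, with a value of -11.85 (edgeR adjusted p = 0.0396).

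**Figure D5:**
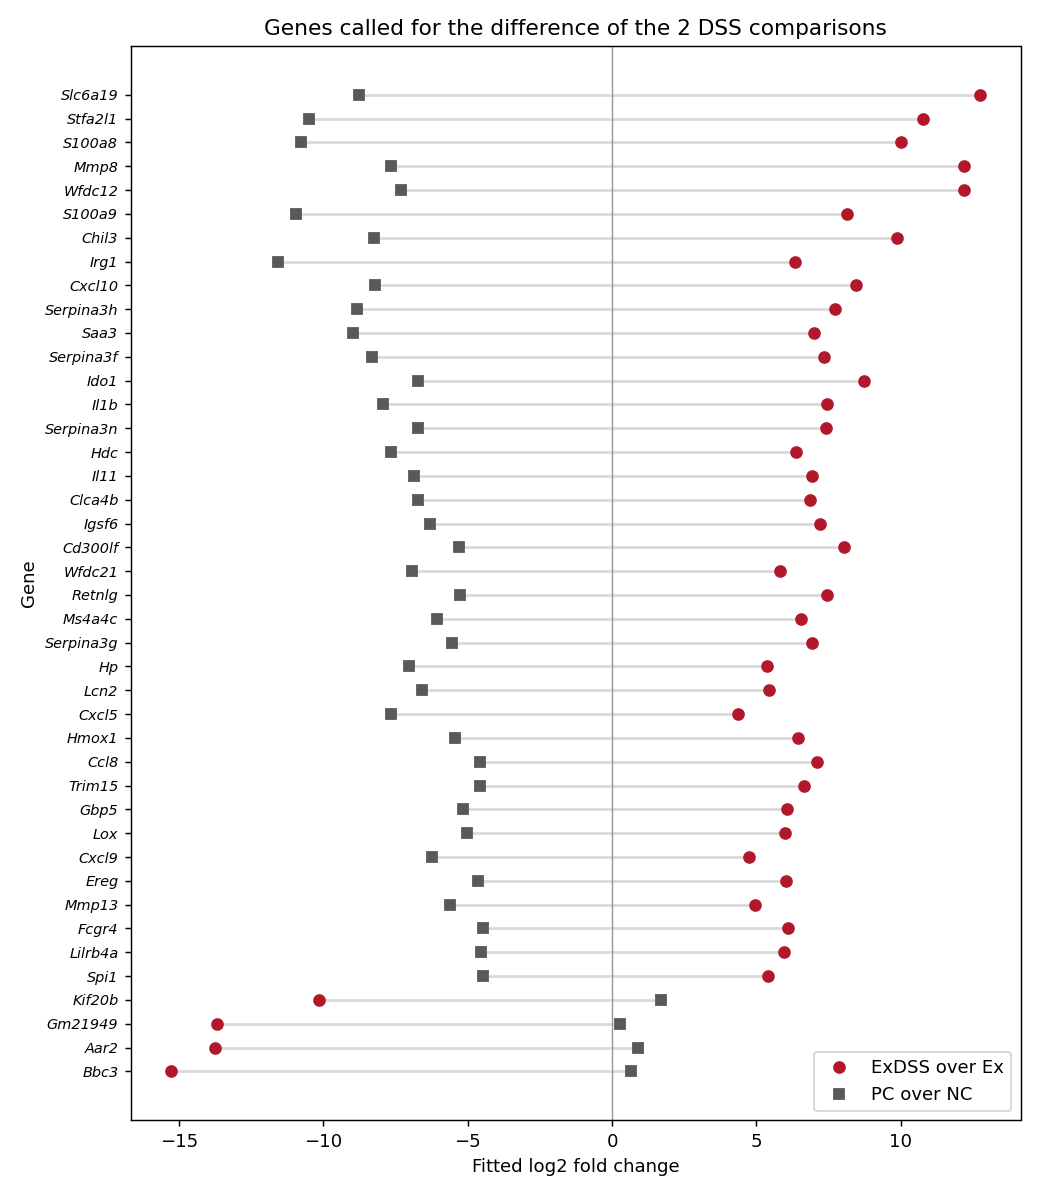
Fitted log2 fold change of ExDSS over Ex and of PC over NC for the 42 genes that passed the test of their difference, 1 line per gene. All 38 genes in the upper part lie right of 0 for ExDSS over Ex and left of 0 for PC over NC, and fitted values of genes without counts in a group depend on the prior count.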

How the data were processed

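Whole-number read counts per gene were deposited for all 8 libraries. Trizol RNA was made into libraries with the QuantSeq 3′ kit, per the labels' protocols, so reads mark transcript ends. The authors used Bowtie2, bedtools and edgeR, per the submitters' processing notes, which give no versions and name the build mm9. The deposited gene positions overlapped GRCm38 genes of the same name for 22071 of 22139 genes (99.69%), so positions are given as GRCm38. The strand setting of the counting is not known here, and overlapping or near-identical genes can share reads. Of 23282 lines, 27 carried a date as a name.

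Counts were tested with edgeR 4.0.16 in R 4.3.3 (TMM factors, filterByExpr with a minimum count of 10 and a total of 15, robust quasi-likelihood F test, 1 coefficient per group over all 8 libraries), with Benjamini-Hochberg adjustment over 14567 genes. Each SE was derived as the size of the log2 fold change over the root of its F statistic, so it is not a fitted error. Intervals and floors (3 counts per library) cover counting error only. Shares have Clopper-Pearson intervals, and pooled ratios of counts have exact conditional intervals.

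Gene lists (36, 25 of them described by named members) and alternatives were chosen with earlier results of these data known. Named genes were the 12 with the smallest p in each direction (mean of at least 5 CPM, no overlap, no gene-model placeholders), the 3 smallest p of each list described, 14 fixed markers and the genes of smallest p in the difference of differences. A gene that this rule picks in the enteric neuron and glia list is not reported here. Zg16 was taken out of the acinar list because goblet cells express it. The genes a promoter is printed for were chosen after their values were seen. Alternatives were DESeq2 1.42.0, limma-voom (limma 3.58.1), other scaling, filters, thinning, a replicate block and leaving out libraries. The test was tried on simulated data.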

Additional observations from a re-analysis of the deposited data

Results flagged for a closer look

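For 26 named genes the difference between ExDSS and Ex was unlike that between PC and NC in edgeR's test of the difference of the 2 differences. The positive log2 values were 20.75 for S100a8, 19.07 for S100a9, 12.68 for Retnlg and 19.82 for Mmp8, all genes of neutrophils. Among cytokines, chemokines and myeloid genes they were 15.38 for Il1b, 16.68 for Cxcl10, 11.69 for Ccl8, 18.10 for Chil3, 13.51 for Igsf6, 10.55 for Fcgr4 and 9.87 for Spi1. Among acute phase, protease inhibitor and antimicrobial genes they were 15.95 for Saa3, 14.10 for Serpina3n, 15.66 for Serpina3f, 12.46 for Serpina3g, 19.50 for Wfdc12 and 12.02 for Lcn2. Interferon-induced genes gave 11.23 for Gbp5 and 15.44 for Ido1, and repair, matrix and transport genes gave 10.66 for Ereg, 10.56 for Mmp13, 10.99 for Lox and 13.59 for Clca4b. The negative values were -15.89 for Bbc3, -14.62 for Aar2 and -11.85 for Kif20b. Each positive value joins a higher level in ExDSS than in Ex with a lower level in the libraries labelled PC than in those labelled NC, so its size rests on the PC and NC labels as given, and the cause of that second difference was not tested.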

How the results depend on the processing

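Between ExDSS and Ex, edgeR called 0 genes in either direction with all libraries. DESeq2 called 392 higher and 1654 lower, limma-voom 79 and 426, and edgeR without the filter on low counts 75 and 148. Leaving out libraries gave 0 to 1483 higher and 0 to 431 lower genes, the highest numbers without Ex 1 and 1 and 7 without either PC library. Other scaling, a stricter filter, thinning, the 4 libraries alone and the fit without robust shrinkage gave 0. For the difference of differences, called for 42 genes, DESeq2 called 1672, limma-voom 327, RLE factors 67, library totals 6, no filter 350, at least 1 CPM in every library 6, and leaving out libraries 0 to 1700. Genes without overlap at 4-fold, with alternatives added after the data were seen, numbered 1152 to 4878 higher and 2438 to 4689 lower when libraries were left out. The higher genes were 4878 without Ex 1, and the lower were 3472 without ExDSS 2, 4219 without Ex 2 and 4689 without both Ex 2 and ExDSS 1. The replicate numbers were not used as pairs in the main fit. The correlation over genes of the differences between replicates was -0.0735 for Ex with ExDSS. Over the pairs of groups it ran from -0.201 (NC with ExDSS) to 0.0543 (NC with PC). It cannot show whether libraries of the same number belong together, since ExDSS 1 and Ex 2 stand apart from the other library of their group. With a replicate block, edgeR called 8 genes higher, 20 lower and 161 for the difference of differences.

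The median of all genes (-0.29) was -0.46 with RLE factors, -0.24 with library totals, -0.84 in limma-voom, 0.08 in the 4 libraries alone and -1.86 to 2.27 without single libraries. Of the genes at an unadjusted p under 0.05, 82.1% were lower in ExDSS, against 61% after thinning and 62.2% with the strict filter. The medians of the neutrophil, acute phase, cytokine, macrophage, interferon and MHC class II lists were above 0 in every setting run.

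Of the named genes, Slc26a3 and Car1 turned to 0.88 and 0.73 in limma-voom. When libraries were left out, log2 fold changes of the named genes that turned ran from -4.16 to 12.98 for Amy2a5, -2.62 to 5.95 for Car1, -4.48 to 0.85 for Cdx1, -0.78 to 11.39 for Cdx2, -11.15 to 4.98 for Cftr, -0.15 to 12.95 for Cgn, -7.49 to 12.72 for Cpa1, -5.33 to 1.35 for Creb3l1, -9.21 to 12.41 for Ctrb1, -10.35 to 0.00 for Elavl4 and -0.11 to 6.91 for Epcam. Likewise they ran from -10.44 to 3.66 for Hopx, -8.20 to 0.00 for Hoxd12, -1.94 to 13.53 for Jup, -11.12 to 0.00 for Lgals4, -4.16 to 1.32 for Ndufa1, -8.66 to 0.00 for Pcsk1, -12.77 to 0.00 for Pparg, -4.40 to 15.01 for Reg3a, -1.83 to 5.81 for Slc26a3, -8.74 to 2.23 for Synm, -3.82 to 4.95 for Tagln and 0.00 to 13.02 for Tff2, where 0.00 is a gene without counts in the libraries left. The cause was not tested. Ex 2 limits what can be seen, since 3 counts there equal 4.47 CPM, against 0.307 CPM in Ex 1.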

Other observations

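Over all genes tested, 10.9% were higher in ExDSS and 13.8% lower without overlap at 4-fold, the shares beside the list counts below. Lists of other cell types, described by summed levels and counts, differed in the 4 libraries as follows. T and NK cell genes summed to 119.5 and 197.9 CPM in ExDSS 1 and ExDSS 2, against 47.8 in Ex 1 and 13.4 in Ex 2, and 7, 13, 18 and 1 of the 23 genes had a count in these libraries. B and plasma cell genes summed to 807.8 and 1551 CPM in ExDSS, against 562.6 and 149 in Ex, and 1 of 16 tested genes was higher and 1 lower without overlap at 4-fold. Ex 2 was the lowest library for both lymphocyte lists. Endothelial genes, which include the adhesion molecules that leukocytes use to leave the blood, summed to 460 and 797.2 CPM in ExDSS, against 239.8 and 14.9 in Ex, and 7 of 20 tested genes were higher without overlap and 1 lower. Erythroid genes, a measure of blood in the tissue, summed to 2468 and 8251 CPM in ExDSS, against 1837 and 40.2 in Ex, and their globin members are near copies that can share reads.

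Paneth cell genes, antimicrobial secretions of the small intestine, summed to 1849 and 695.2 CPM in ExDSS, against 53.9 and 22.4 in Ex, with 2 of 7 tested genes higher without overlap. Genes of small intestinal absorption summed to 613.1 and 397.3 CPM in ExDSS, against 482 and 38.8 in Ex, and 5 of 20 tested genes were higher and 4 lower. The summed Paneth level was higher in both ExDSS libraries than in both Ex libraries, but it rests on few genes. Of the 18 Paneth genes, 4, 7, 7 and 4 had a count in ExDSS 1, ExDSS 2, Ex 1 and Ex 2. The absorption level of Ex 1 lay between those of ExDSS 1 and ExDSS 2. Tuft cell genes, of a chemosensory epithelial type, summed to 189.4 and 271.4 CPM in ExDSS, against 73 and 5.96 in Ex, with 4 of 11 tested genes higher and 1 lower. Adipocyte genes summed to 515.1 CPM in ExDSS 1 and 2805 in ExDSS 2, against 2341 in Ex 1 and 25.3 in Ex 2, so fat-associated RNA was as high in 1 library of each group. Pancreatic islet genes summed to 369.8 and 632.4 CPM in ExDSS, against 72.0 and 4.47 in Ex, while acinar genes summed to 286400 CPM in ExDSS 1 and 962.3 in ExDSS 2. Of the 11 islet list genes, 5 had a count in ExDSS 1 and 4 in ExDSS 2. The islet list holds Sst, which enteroendocrine cells also make, and the part of islet RNA in its sum was not tested. Hepatocyte genes summed to 53.8 and 37.9 CPM in ExDSS, against 237.5 and 64.1 in Ex, with 4 of 8 tested genes lower without overlap. Genes of lymph node and spleen stroma summed to 486.9 and 982.7 CPM in ExDSS, against 120.4 and 1.49 in Ex, with 2 of 6 tested genes higher. With all libraries edgeR called 0 members of these lists. Without the filter on low counts it called 1 Paneth cell, 1 absorption and 20 acinar genes, beside 223 of all 18518 genes. The parts of these cell types in the levels of other genes were not tested.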
